A study of Mus musculus with 21 samples.

Results

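The 34 genes described here code for proteins of the cardiac extracellular matrix other than collagens, together with 4 markers of the fibroblasts that make much of it. They were chosen by gene symbol, by a rule that used no measured value but was drawn up with earlier results of these data known, and all 34 were found among the 19096 genes of the deposited gene matrix. They comprise 10 genes of elastic fibres and fibronectin, 8 small leucine-rich proteoglycans, 7 basement membrane genes, 5 other matrix genes and 4 fibroblast markers.

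RNA was sequenced from heart tissue of male C57BL/6NJ mice in 21 libraries, called hearts here; the chambers taken are not given in the sources used here. Mice entered at 8 to 10 weeks of age and ate chow or a diet with 60% of energy from fat (HFD) for 10 weeks. Renin, the enzyme that starts the production of angiotensin, was delivered with an adeno-associated virus injected behind the eye, and hearts were taken 6 weeks later. The study set out to compare the pairing of fat feeding with renin, meant to model a failing heart whose ejection fraction is kept, with each treatment alone and with controls. The 4 groups were chow novirus (n = 4), chow Renin (n = 6), HFD novirus (n = 6) and HFD Renin (n = 5). The series text states that the mice without renin received a null vector, while the sample labels call them novirus. No promoter for the renin vector is given in the sources used here. Replicates are separate samples in the labels, and p-values measure the spread between these samples.

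Elastic fibres consist of an elastin core on a scaffold of fibrillin microfibrils, joined by fibulins and microfibril-associated proteins. Small leucine-rich proteoglycans bind collagen fibrils and set their spacing, and some of them also bind growth factors. Basement membranes are sheets of laminins, nidogens, perlecan and type IV collagen that surround each cardiomyocyte and capillary, while fibroblasts in the spaces between lay down most of the fibrillar matrix.

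Totals per library were 18.7 to 29.3 M estimated reads, and every chow novirus library (18.7 to 21.4 M) was shallower than every other library (22.8 M or more), so that depth and this group cannot be told apart. All 8 cardiomyocyte markers tested were abundant, with a summed level of 45444 to 67251 CPM (counts scaled to library size with the trimmed mean of M-values). Each group held 1 or more libraries with strong atrial signal: in chow novirus 3, chow Renin 1 and 3, HFD novirus 3 and HFD Renin 3, the atrial myosin light chain gene Myl7 stood at 103 to 254 CPM, against 0.278 to 2.98 in the other 16, and Sln at 34 to 73.1 CPM against 0 to 0.667. Replicate 3 was thus atrial-rich in all 4 groups. The mean log2 CPM of the 8 atrial markers tested was 5.15 to 6.07 in these 5 and 1.35 to 2.48 in the other 16, which are called low in atrial markers here. The summed level of the same markers did not separate them: it was 599 to 1309 CPM in the 5, and HFD Renin 1, 2 and 5, counted among the 16, stood at 1035, 729 and 613 CPM. The counts of calls below are given with all 21 libraries and with those 16. In bulk tissue, fewer cells of a type and less RNA per cell cannot be told apart. Central neuron markers (10 of 10 tested) summed to 290 to 445 CPM in chow Renin hearts and to 110 to 182 CPM in all others, a difference that accompanies each comparison with chow Renin.

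In chow novirus hearts the 34 genes spanned a wide range of abundance per transcript length. Gsn, which codes for the actin-severing protein gelsolin and is abundant in fibroblasts, was highest at 307 ± 122 TPM (transcript abundance corrected for length; SD, n = 4). Decorin (Dcn) followed at 153 ± 52.0 and matrix Gla protein (Mgp), an inhibitor of calcification, at 149 ± 111. The means of Dcn and Mgp differed by less than either SD. The lowest were versican (Vcan) at 1.44 ± 0.565 TPM and fibroblast activation protein (Fap) at 0.742 ± 0.118.

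The combination of HFD and renin was set first against chow novirus. Of the 34 genes 7 rose and 0 fell (edgeR quasi-likelihood test, Benjamini-Hochberg adjusted p under 0.05 over all 15216 genes tested), where 8.29% of all genes were called (4.05% higher and 4.25% lower). The genes were Fbn1, Fbln2, Mfap5, Aspn, Lama2, Lamb1 and Sparcl1. The median log2 fold change of the 34 was 0.29, beside 0.01 over all genes tested. Without the 5 libraries high in atrial markers, 12 rose and 0 fell, where 8.34% of all genes were called: Lama2 and Lamb1 left the list, and Bgn, Lum, Prelp, Mfap4, Emilin1, Pcolce and Vcan joined it.

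Against HFD novirus, the control on the same diet, 4 genes rose (Fbn1, Fbln2, Bgn and Lamc1) and Efemp1 fell, where 11.1% of all genes were called (6.07% higher and 5.08% lower). No gene of the 34 separated the ranges of these 2 groups, against 1.95% of all genes higher and 1.52% lower. The median log2 fold change was 0.20 over the 34 and -0.01 over all genes. In the 16 libraries low in atrial markers 10 rose and 0 fell, where 9.83% of all genes were called. Those 10 were Fbn1, Fbln2, Mfap4, Emilin1, Aspn, Bgn, Lum, Prelp, Lamc1 and Vcan. Both comparisons use the same HFD Renin hearts.

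Clock genes moved with these groups. A score of morning minus evening clock genes (mean log2 CPM of each list) was -3.59 to -3.37 in chow novirus, -3.39 to -3.08 in HFD novirus, -3.14 to -2.76 in chow Renin and -3.21 to -2.19 in HFD Renin. With that score as a covariate 0 of the 34 genes were called in either comparison, and over all 15216 genes tested 0 were called against chow novirus (1262 without the score; 1337 had an unadjusted p under 0.05 with it) and 30 against HFD novirus (1696 without it). The adjusted p of the 7 genes called against chow novirus then lay between 0.515 and 0.883, and that of the 5 called against HFD novirus between 0.421 and 0.54 (edgeR). The 7 and the 5 fold changes kept their direction. All HFD Renin scores lay above those of chow novirus, so that the score and the group cannot be told apart in that comparison. The scores of HFD Renin 1, 2 and 5 also lay above all of HFD novirus.

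**Figure D1:**
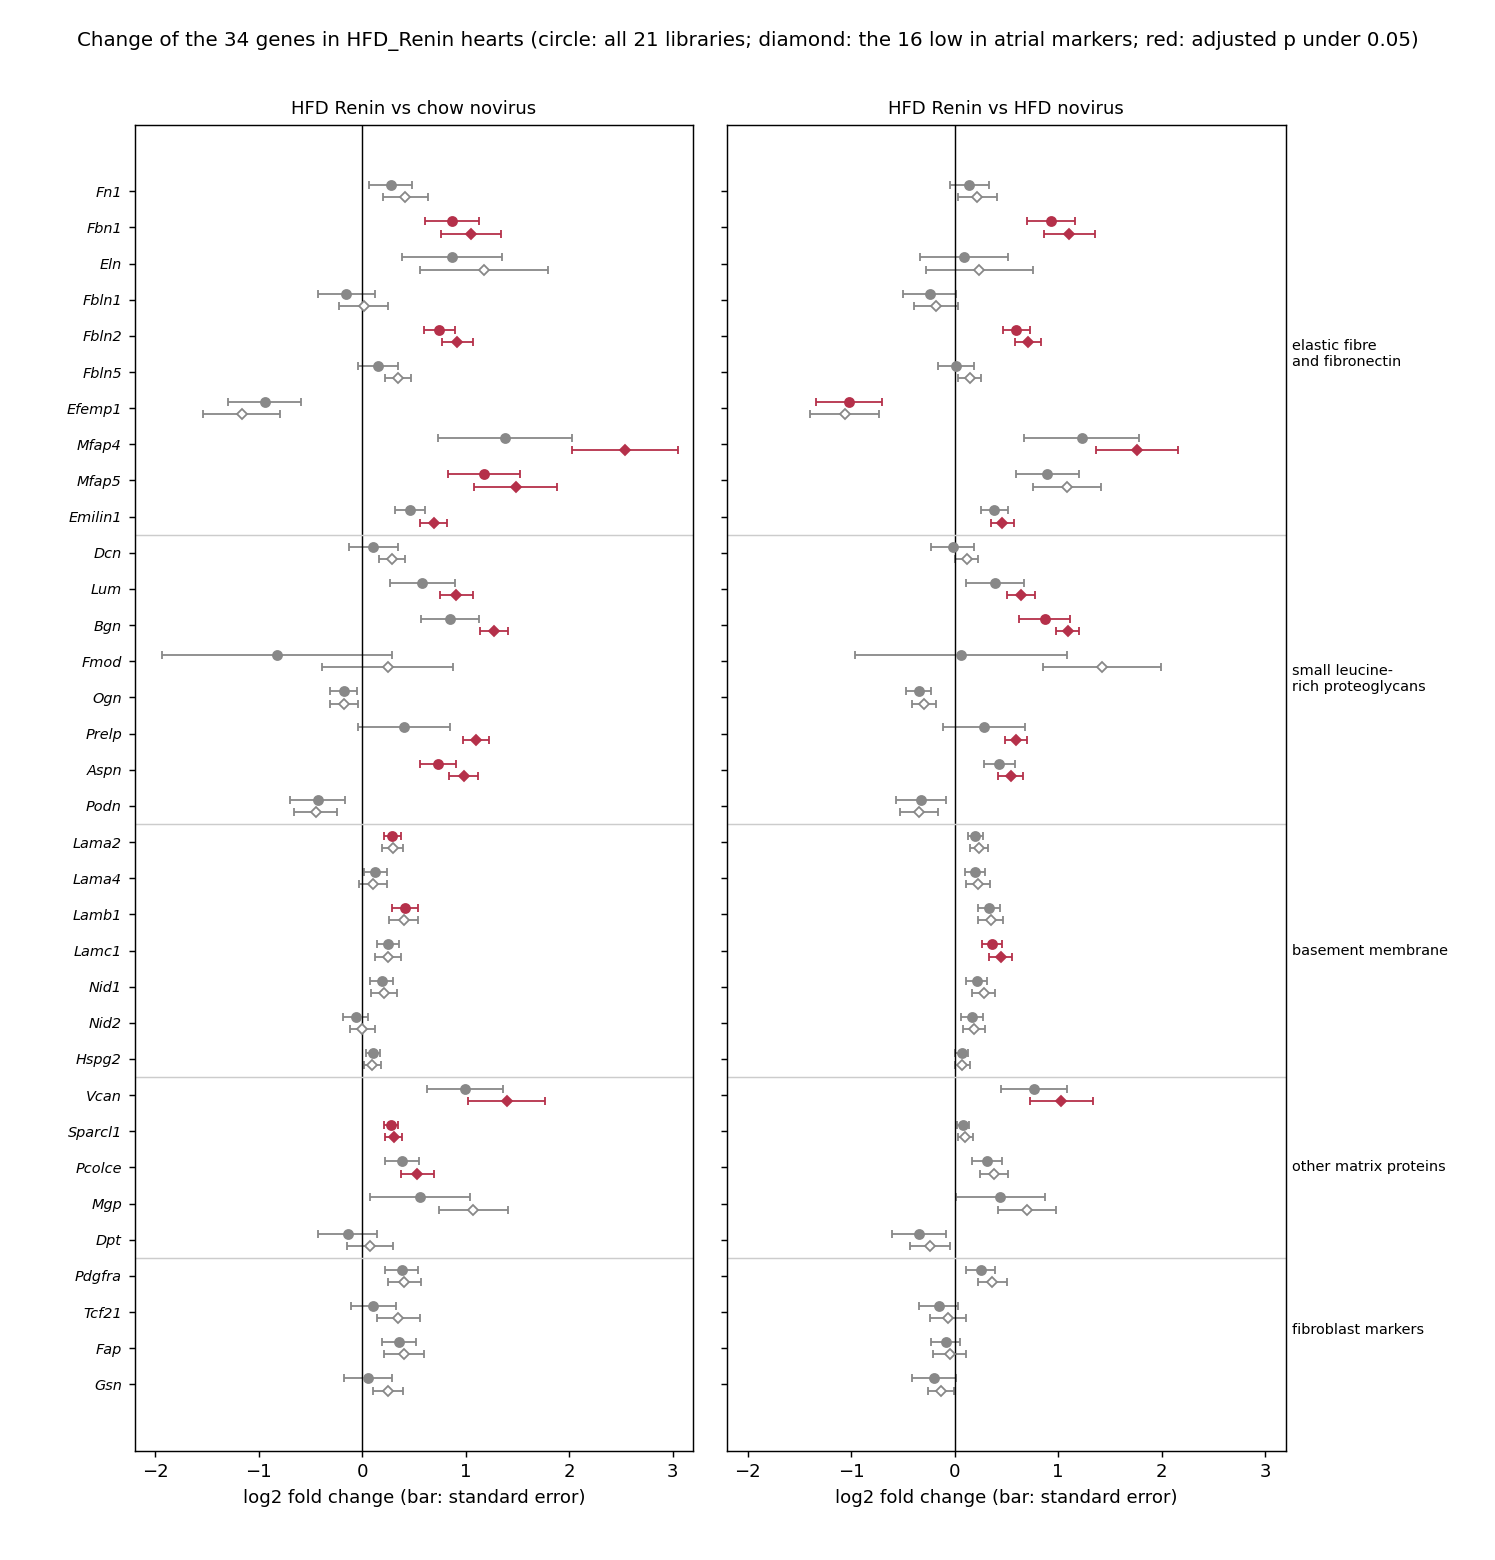
Log2 fold change with standard error (horizontal axis) of each of the 34 genes (rows, in 5 role groups) in HFD Renin hearts against chow novirus (left) and HFD novirus (right). Circles use all 21 libraries and diamonds the 16 low in atrial markers, with an adjusted p under 0.05 in red; 7 circles are red on the left and 5 on the right, against 12 and 10 diamonds.

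Among the elastic fibre and fibronectin genes, 3 of 10 rose against chow novirus, and 2 rose and 1 fell against HFD novirus. Fbn1 (chr2:125300594-125507993, GRCm38, minus strand) codes for fibrillin-1, the backbone of microfibrils. Its levels in HFD Renin hearts were 117, 59.1, 40.8, 59.7 and 88.5 CPM, against 38.2, 35.8, 43.8 and 42.0 in chow novirus. The lowest, median and highest HFD novirus levels were 22.7, 38.9 and 57.4 CPM. HFD Renin 3, the atrial-rich library, was the only HFD Renin heart that lay within the chow novirus range. Fbn1 rose by 0.93 ± 0.23 on the log2 scale (SE) against HFD novirus (adjusted p = 0.0163, edgeR) and by 0.87 ± 0.26 against chow novirus (adjusted p = 0.0472). HFD Renin 1 was the highest library: without it the changes were 0.69 (adjusted p = 0.0634) and 0.62 (adjusted p = 0.129), and without HFD Renin 5 they were 0.85 (adjusted p = 0.0535) and 0.79 (adjusted p = 0.11). The call against chow novirus was also lost without HFD Renin 2 or any 1 chow novirus library, with an adjusted p of up to 0.119.

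Fbln2 (chr6:91212455-91272540, plus strand) codes for fibulin-2, which links fibrillin and fibronectin networks. It measured 175, 152, 112, 104 and 160 CPM in HFD Renin hearts and 79.7, 78.8, 104 and 73.6 in chow novirus. HFD novirus hearts had a low of 81.3, a median of 84.0 and a high of 120 CPM, and chow Renin hearts 78.5, 84.4 and 101. All 5 HFD Renin libraries lay above every chow novirus and every chow Renin library, but HFD Renin 3 and 4 lay below the highest HFD novirus library. The rise was 0.74 ± 0.15 against chow novirus (adjusted p = 0.00474, edgeR) and 0.60 ± 0.13 against HFD novirus (adjusted p = 0.00739). It passed the test whichever single library was left out, with an adjusted p of at most 0.0305 (edgeR).

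The microfibril-associated genes Mfap5 and Mfap4 had the largest fold changes of the group against chow novirus. Mfap5 (chr6:122505845-122529290, plus strand) was at 37.9, 24.2, 22.3, 25.6 and 34 CPM in HFD Renin and at 10.2, 12.7, 18.5 and 9.41 CPM in chow novirus, without overlap. It rose by 1.18 ± 0.35 against chow novirus (adjusted p = 0.0429, edgeR), a call lost without HFD Renin 1, 2 or 5 or chow novirus 1, 2 or 4 (adjusted p up to 0.136). Against HFD novirus, where 1 library (replicate 6) reached 31.1 CPM above a median of 11.6, the difference was 0.90 ± 0.30 (adjusted p = 0.0624). Mfap4 measured 15.0 to 22.5 CPM in HFD Renin. Its chow novirus libraries stood at 3.3 to 3.49 CPM apart from the atrial-rich replicate 3 at 19.0. Its log2 difference from chow novirus was 1.38 ± 0.65 with all libraries (adjusted p = 0.205, edgeR) and 2.54 ± 0.51 with the 16 (adjusted p = 0.0101).

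Efemp1 (chr11:28853204-28926743, plus strand) codes for fibulin-3 and was the one gene of the 34 that fell in HFD Renin against HFD novirus, by 1.02 ± 0.32 on the log2 scale (adjusted p = 0.0464, edgeR). Its HFD Renin levels split into 2.49, 4.33 and 4.39 CPM (replicates 1, 2 and 5) and 10.9 and 12.5 CPM (replicates 3 and 4). HFD novirus hearts had a low of 8.72, a median of 13.7 and a high of 22.3 CPM, and chow novirus hearts 14, 12.3, 13.6 and 13.6. Only the first 3 HFD Renin libraries lay below all controls. The same 3 libraries had the highest Fbln2 levels of their group. They also differed from replicates 3 and 4 in marker sums: epicardial and mesothelial markers (9 of 9 tested) were at 9.35, 9.39 and 9.70 CPM against 13.1 and 34.9, and blood markers (5 of 5) at 710, 587 and 547 CPM against 1149 and 1012. Their clock scores were -2.19, -2.77 and -2.80 against -3.21 and -3.20. The part of these in the split was not tested. Leaving out HFD Renin 1, 2 or 5 or HFD novirus 1, 2, 3, 4 or 6 ended the call, with an adjusted p of up to 0.128 (edgeR), and in the 16 libraries it was 0.0615.

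Elastin (Eln), fibulin-1 (Fbln1), fibulin-5 (Fbln5) and Emilin1 did not pass in either comparison with all 21 libraries. Fbln1 (-0.15 against chow novirus) and Fbln5 (0.15) did not pass in the 16 libraries either. Eln varied most: 1 HFD novirus library (replicate 6) held 148 CPM, against a group median of 31.1. Emilin1, an elastic fibre glycoprotein, differed from chow novirus by 0.46 ± 0.15 (adjusted p = 0.0543, edgeR), and by 0.69 ± 0.13 in the 16 libraries low in atrial markers (adjusted p = 0.00332).

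Of the 8 small leucine-rich proteoglycans, 1 rose against chow novirus (Aspn) and 1 against HFD novirus (Bgn), and in the 16 libraries 4 rose in each comparison (Aspn, Bgn, Lum and Prelp). Bgn (chrX:73483602-73495933, plus strand) codes for biglycan. HFD Renin hearts had 318, 346, 265, 242 and 284 CPM, and chow novirus hearts 121, 123, 280 and 122, the 280 being the atrial-rich library. HFD novirus ran from 122 through a median of 135 to 260 CPM, with the highest again its atrial-rich library. Only HFD Renin 1, 2 and 5 lay above every library of both groups. Bgn rose by 0.87 ± 0.25 against HFD novirus (adjusted p = 0.0305, edgeR), a call lost without HFD Renin 1, 2 or 5 or HFD novirus 2, 4 or 5 (adjusted p up to 0.0834). In the 16 libraries the rise was 1.09 ± 0.12 (adjusted p = 5.05e-05) against HFD novirus and 1.27 ± 0.14 (adjusted p = 6.49e-05) against chow novirus.

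Aspn (chr13:49544443-49567565, plus strand) codes for asporin, which binds collagen. It was at 31.4, 27.2, 24.6, 27.0 and 26.6 CPM in HFD Renin and at 13.7, 14.7, 23.6 and 13.8 in chow novirus, without overlap. It rose by 0.73 ± 0.17 (adjusted p = 0.0123, edgeR; 0.0566 without chow novirus 4). Over HFD novirus, which had a low of 16.1, a median of 19.4 and a high of 25.6 CPM, the difference was 0.43 ± 0.15 (adjusted p = 0.0682), and 0.54 ± 0.12 in the 16 libraries (adjusted p = 0.00814).

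Lumican (Lum) and prolargin (Prelp) did not pass against chow novirus with all libraries included, and their highest values in both control groups were in atrial-rich hearts. Prelp in chow novirus was 34.5, 28.9, 131 and 40.8 CPM, and in HFD Renin 63.8, 82.0, 88.2, 84.2 and 70.8. The log2 difference was 0.40 ± 0.45 with all libraries (adjusted p = 0.628, edgeR) and 1.1 ± 0.13 without the 5 (adjusted p = 0.000109). Lum moved from 0.58 ± 0.32 (adjusted p = 0.277) to 0.91 ± 0.16 (adjusted p = 0.00232). Decorin, fibromodulin (Fmod), osteoglycin (Ogn) and podocan (Podn) passed in neither set of libraries in these 2 comparisons; against chow novirus with all libraries they differed by 0.11, -0.83, -0.18 and -0.43. In libraries low in atrial markers, valve markers (9 of 10 tested) summed to 39.6 to 67.8 CPM in HFD Renin and 11.3 to 31.8 elsewhere. Atrial-rich libraries were at 76.7 CPM in HFD Renin and 78.3 to 133 CPM elsewhere. In HFD Renin 1, 2 and 5, Comp (7.59 to 14.3 CPM) exceeded the low-atrial libraries of other groups (1.39 to 6.27). Chad (0.271 to 0.337 CPM) and Cytl1 (3.59 to 5.18) did not (0.112 to 0.674 and 2.86 to 9.60). HFD Renin 4 exceeded them for each of these genes. The part of valve markers in these results was not tested. Smooth muscle markers (8 of 8 tested) summed to 2119 to 2388 CPM in HFD Renin against 1706 to 2095 elsewhere. Of that list, Myh11 and Acta2 did not separate the groups. Myh11 was at 41.5 to 76.8 CPM in HFD Renin, 33.5 to 143 in HFD novirus and 39.3 to 56.0 in chow novirus. Acta2 was at 57.9 to 111, 51.6 to 179 and 61.9 to 81.4 CPM. Cardiomyocyte markers summed to 45444 to 52785 CPM in HFD Renin against 55395 to 67251 in chow novirus. The part of these markers was not tested either.

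Promoters of Fbln2, Efemp1 and the neighbours Aspn and Ogn are shown because Fbln2 rose and Efemp1 fell in HFD Renin against HFD novirus, and because Aspn, which rose against chow novirus, lies beside Ogn, which did not pass in that comparison. Aspn and Ogn lie 40.5 kb apart on chromosome 13. The sequences are RefSeq's on GRCm38.p6, 250 bases before to 50 after the annotated start, read 5′ to 3′ on the gene's strand. RefSeq promoters were available for 22 of the 34 genes. Capitals mark matches on either strand to AP-1 (TGANTCA), TEAD (GGAATG) and TATAAA, which overlap each other on both strands in Ogn.
Fbln2 promoter, chr6:91212514-91212813, plus strand: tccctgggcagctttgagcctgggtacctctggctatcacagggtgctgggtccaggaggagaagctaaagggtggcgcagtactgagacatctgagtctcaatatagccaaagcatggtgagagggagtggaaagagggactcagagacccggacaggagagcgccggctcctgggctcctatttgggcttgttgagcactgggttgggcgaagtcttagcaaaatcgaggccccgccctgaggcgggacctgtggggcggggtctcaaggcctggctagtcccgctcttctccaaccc
Efemp1 promoter, chr11:28852955-28853254, plus strand: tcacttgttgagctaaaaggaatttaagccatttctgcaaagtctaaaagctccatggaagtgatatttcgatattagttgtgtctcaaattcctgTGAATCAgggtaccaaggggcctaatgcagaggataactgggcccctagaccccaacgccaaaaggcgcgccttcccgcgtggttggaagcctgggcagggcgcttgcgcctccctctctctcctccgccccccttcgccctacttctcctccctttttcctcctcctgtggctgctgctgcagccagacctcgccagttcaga
Aspn promoter, chr13:49544193-49544492, plus strand: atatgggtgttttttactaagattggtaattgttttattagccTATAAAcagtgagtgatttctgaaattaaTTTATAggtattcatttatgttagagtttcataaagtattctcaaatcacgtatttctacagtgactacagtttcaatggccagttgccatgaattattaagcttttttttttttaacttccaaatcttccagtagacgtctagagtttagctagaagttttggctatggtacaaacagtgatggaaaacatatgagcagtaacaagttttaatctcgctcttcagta
Ogn promoter, chr13:49607765-49608064, plus strand: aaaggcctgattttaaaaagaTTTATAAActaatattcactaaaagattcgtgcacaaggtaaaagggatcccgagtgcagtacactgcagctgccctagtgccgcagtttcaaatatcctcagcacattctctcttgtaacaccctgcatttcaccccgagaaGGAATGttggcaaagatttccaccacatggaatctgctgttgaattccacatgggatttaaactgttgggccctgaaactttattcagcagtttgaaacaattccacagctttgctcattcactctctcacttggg
AP-1 matched in 1 of the 22 promoters (Efemp1), beside 7.81% of 32851 promoters in the table. TEAD matched in 2 of 22 (Ogn and Nid1), beside 14.7%, and TATAAA in 3 of 22 (Aspn, Ogn and Dpt), beside 13.6%. A match is a description of the letters only.

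Of the 7 basement membrane genes 2 rose against chow novirus (Lama2 and Lamb1), where 4.05% of all genes were called higher. Against HFD novirus 1 rose (Lamc1), where 6.07% of all genes were called higher, and all 7 point estimates were above 0. Lama2 (chr10:26980036-27619758, minus strand), the laminin chain whose loss causes a muscular dystrophy, was at 97.6, 73.1, 74.7, 73.1 and 85.3 CPM in HFD Renin. Chow novirus hearts had 70.5, 68.0, 64.5 and 60.7, all lower. The rise was 0.29 ± 0.08 (adjusted p = 0.0308, edgeR), and 0.29 ± 0.10 in the 16 libraries (adjusted p = 0.0765). The call was also lost without HFD Renin 1 or 5 or chow novirus 2, 3 or 4 (adjusted p up to 0.117).

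Lamb1 (chr12:31265234-31329644, plus strand), a laminin beta chain, was at 141, 145, 99.5, 92.8 and 114 CPM in HFD Renin against 91.5, 93.2, 78.4 and 92.7 in chow novirus. HFD Renin 4 lay inside the control range. Lamb1 rose by 0.41 ± 0.12 (adjusted p = 0.0392, edgeR), a call lost without HFD Renin 1, 2 or 5 or any 1 chow novirus library (adjusted p up to 0.123) and in the 16 libraries (adjusted p = 0.0827). Lamc1 (chr1:153218922-153332786, minus strand), the shared laminin gamma chain, was at 249, 197, 173, 177 and 218 CPM in HFD Renin, while HFD novirus ran from 128 through 156 to 183. HFD Renin 3 and 4 lay within the HFD novirus range and the other 3 above it. It rose by 0.36 ± 0.10 against HFD novirus (adjusted p = 0.0187, edgeR) and by 0.44 ± 0.11 in the 16 libraries (adjusted p = 0.0154). Without HFD Renin 1 or 5 the adjusted p was 0.094 or 0.0594. Nid1, Nid2, Lama4 and Hspg2 passed in neither comparison, with log2 differences from -0.06 to 0.21.

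Of the 5 other matrix genes, Sparcl1 rose against chow novirus. Sparcl1 (chr5:104079111-104113733, minus strand) codes for hevin, a relative of SPARC. It measured 346, 359, 302, 310 and 333 CPM in HFD Renin and 252, 254, 277 and 306 in chow novirus, with overlap at the edges. The rise was 0.28 ± 0.07 (adjusted p = 0.0107, edgeR; 0.0557 without chow novirus 1 and 0.0566 without chow novirus 2), and the difference from HFD novirus was 0.08 ± 0.06 (adjusted p = 0.379). Versican, a large hyaluronan-binding proteoglycan, was at 26.6, 15.1, 15.9, 15.9 and 25.8 CPM in HFD Renin and at 9.26, 7.28, 16.5 and 6.98 in chow novirus. Its difference from chow novirus was 0.99 ± 0.37 (adjusted p = 0.106, edgeR), and 1.4 ± 0.37 in the 16 libraries (adjusted p = 0.0335). Pcolce, which codes for an enhancer of procollagen processing, differed by 0.38 (adjusted p = 0.152; 0.0497 in the 16 libraries). Mgp (0.56) and dermatopontin (Dpt, -0.14) did not pass in either set.

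None of the 4 fibroblast markers passed in either comparison, with all 21 libraries or with the 16. Pdgfra (chr5:75152292-75198215, plus strand), a receptor that marks cardiac fibroblasts, was at 40.6, 34.2, 33.6, 32.5 and 30.9 CPM in HFD Renin and at 28.2, 23.9, 28.1 and 25.1 in chow novirus. The ranges did not overlap, as for 5 of the 34 genes and for 4.98% of all genes in that direction (5.07% in the other, with 0 of the 34), yet the difference of 0.38 ± 0.16 had an adjusted p of 0.144 (edgeR). HFD novirus hearts (21.8, 27.5 and 39.4 CPM as low, median and high) overlapped them. Tcf21 (chr10:22817281-22820174, minus strand), a transcription factor of resident fibroblasts, was at 7.67, 9.78, 7.93, 8.86 and 5.96 CPM in HFD Renin and at 6.08, 5.22, 11.1 and 7.47 in chow novirus. Its difference was 0.11 ± 0.22 (adjusted p = 0.806). Fap (0.36, adjusted p = 0.183) and Gsn (0.06, adjusted p = 0.907) completed the group.

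**Figure D2:**
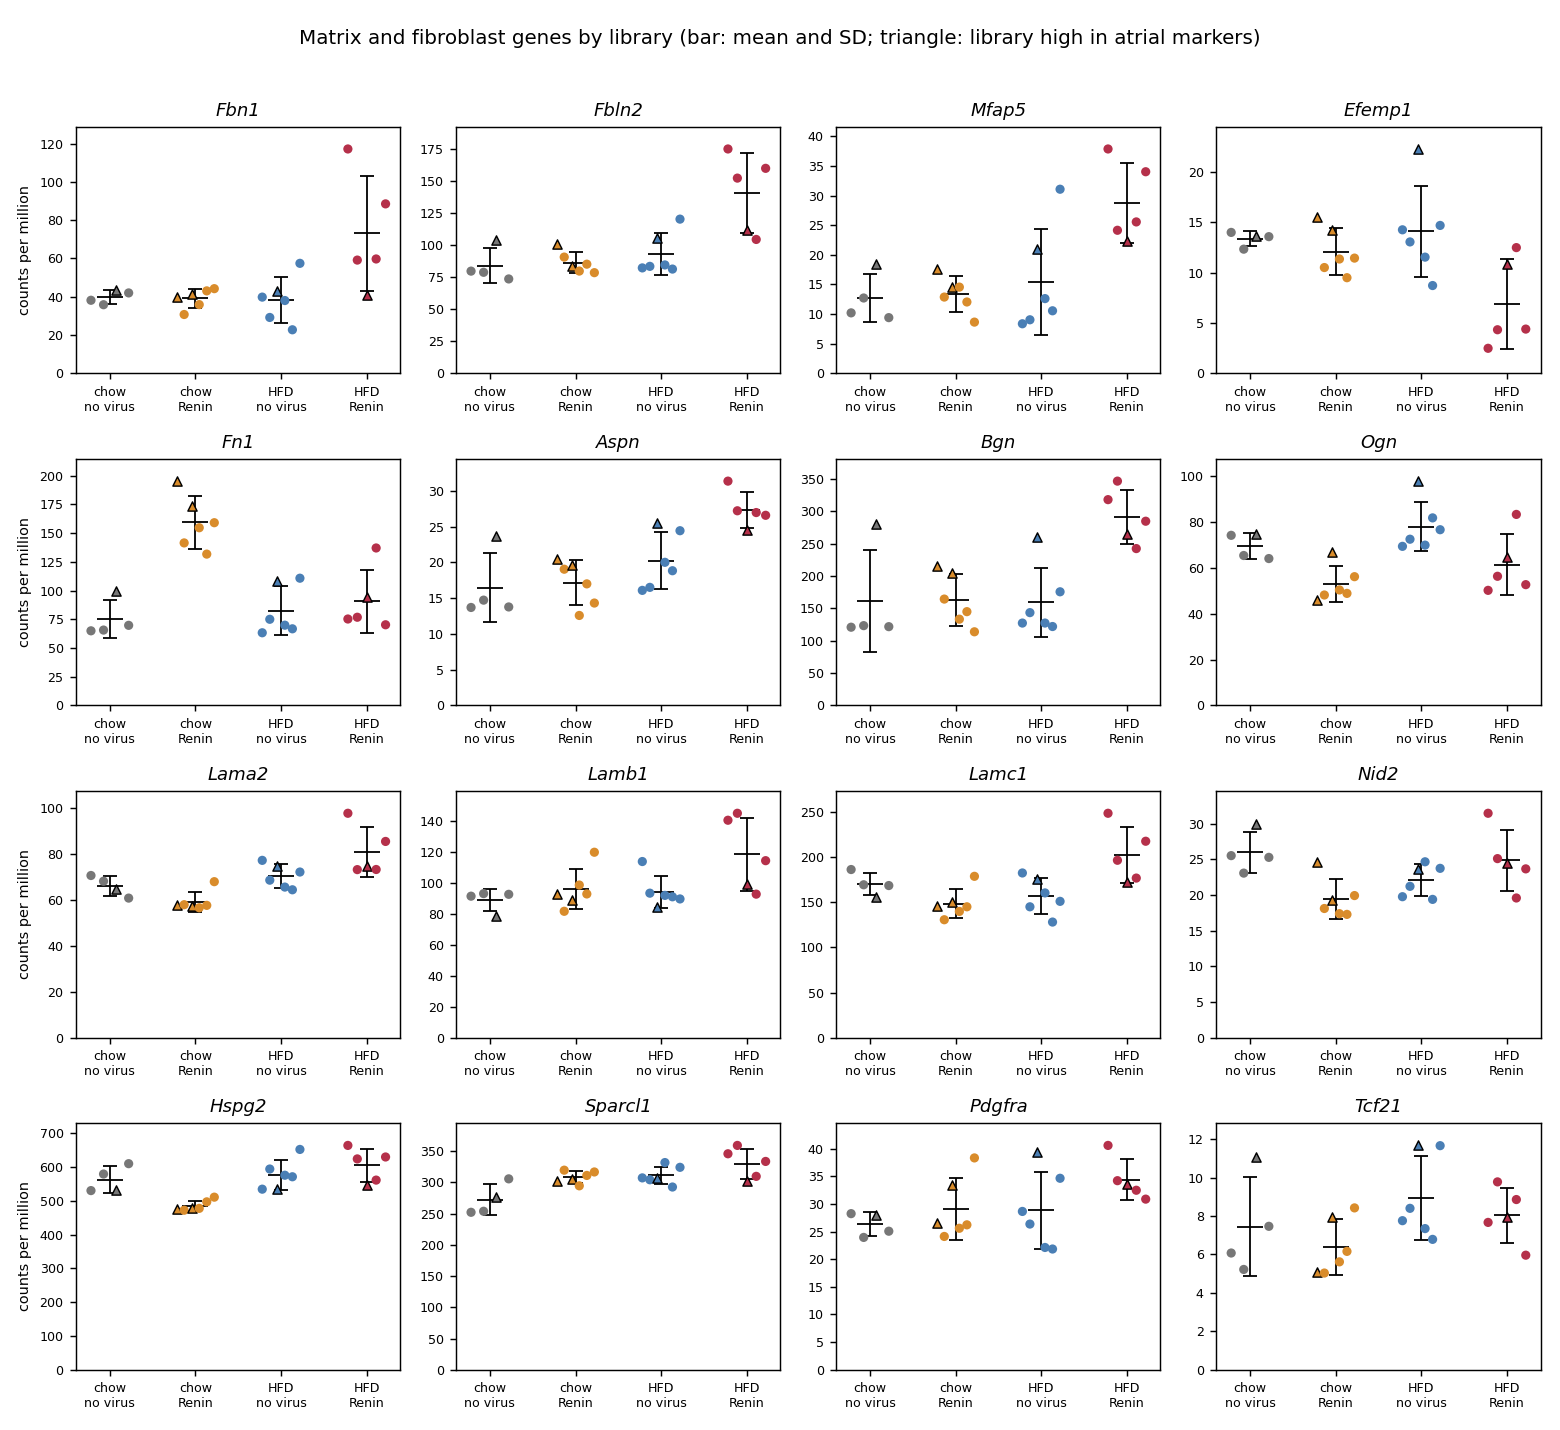
CPM (vertical axis, from 0) of 16 genes in every library, with the group mean and SD as bars and triangles for libraries high in atrial markers. Fbln2, Mfap5, Aspn, Lama2 and Pdgfra in HFD Renin lie above every chow novirus library, and Fn1 in chow Renin (132 to 195) lies above all of chow novirus (64.9 to 99.9).

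Renin was also tested on chow. Against chow novirus 1 gene rose and 3 fell, where 13.5% of all genes were called (10.1% higher and 3.36% lower). In the 16 libraries Fn1 was higher and Nid2 lower, where 10.3% of all genes were called. Fn1 (chr1:71585520-71653200, minus strand) codes for fibronectin, the adhesive glycoprotein that organizes early matrix. Its chow Renin libraries ran from 132 through a median of 157 to 195 CPM, while chow novirus had 64.9, 65.6, 99.9 and 69.7. The groups did not overlap, as for 10.4% of all genes in that direction. Fn1 rose by 1.09 ± 0.21 (adjusted p = 0.000923, edgeR), passed whichever library was left out, and rose by 1.15 ± 0.22 in the 16 libraries (adjusted p = 0.00238). In HFD Renin it was 75.2, 76.8, 94.4, 137 and 70.2 CPM, a difference of 0.14 ± 0.19 from HFD novirus (adjusted p = 0.688). The diet-by-renin interaction (the renin difference under HFD less that under chow) was -0.94 ± 0.28 for Fn1 (adjusted p = 0.035), and -0.93 ± 0.29 in the 16 libraries (adjusted p = 0.0684); 10 of 21 fits without 1 library also lost it, with an adjusted p of up to 0.0781. The central neuron markers given above differed in the same direction as Fn1 in chow Renin; with a central nervous score as a covariate 0 of the 34 genes were called in any comparison with chow Renin. Over all 15216 genes that fit called 27 in chow Renin against chow novirus, 40 in HFD Renin against chow Renin and 25 in the interaction. The score was 3.29 to 3.97 in chow Renin and 1.71 to 2.53 in all other libraries, so that it and the group cannot be told apart.

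The 3 genes that fell in chow Renin were Ogn, Nid2 and Hspg2. Hspg2 (chr4:137468769-137570630, plus strand), which codes for perlecan, had a low of 472, a median of 478 and a high of 511 CPM, below all of chow novirus at 530, 579, 531 and 610 (4.75% of all genes lay wholly below). It fell by 0.21 ± 0.07 on the log2 scale (adjusted p = 0.0344, edgeR; 0.119 in the 16 libraries), and did not pass without chow Renin 1, 2, 3, 4 or 5 or chow novirus 2 or 4 (adjusted p up to 0.148). Nid2 (chr14:19751265-19811787, plus strand), a nidogen that joins laminin to collagen IV, had 17.3, 18.7 and 24.6 CPM as low, median and high, against 25.5, 23.1, 30.0 and 25.3. It fell by 0.42 ± 0.11 (adjusted p = 0.0134, edgeR), also with the 16 (adjusted p = 0.0314) but not without chow novirus 3 (adjusted p = 0.0626). Ogn (chr13:49608046-49624501, plus strand) ran from 46.1 through 49.6 to 67.1 CPM, against 74.1, 65.3, 74.8 and 64.0, and fell by 0.40 ± 0.13 (adjusted p = 0.041; 0.0641 with the 16). That call was lost without chow Renin 1, 2, 4 or 5 or any 1 chow novirus library (adjusted p up to 0.134). With the clock score as a covariate the adjusted p of Ogn was 0.64, while Fn1, Nid2 and Hspg2 still passed. Endothelial markers summed to 818 to 978 CPM in chow Renin and 952 to 1031 CPM in chow novirus, and cardiomyocyte markers to 51562 to 53755 CPM against 55395 to 67251 CPM, without overlap; their part in the 3 falls was not tested.

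HFD Renin and chow Renin differed in 14 of the 34 genes, 13 higher in HFD Renin and Fn1 lower, where 22.6% of all genes were called (9.8% higher and 12.8% lower). The ranges of 9 genes did not overlap, all higher in HFD Renin, against 5.55% of all genes higher and 9.78% lower. All 7 basement membrane genes were among the 13. The call of Lamb1 was lost in 8 of 11 fits without 1 library (all but those without HFD Renin 3 or 4 or chow Renin 6; adjusted p up to 0.221, edgeR), that of Nid2 without HFD Renin 1 or chow Renin 5 (up to 0.117) and that of Lama4 without HFD Renin 1 (0.0751). Of the others, Bgn was lost without HFD Renin 1 or 2 (up to 0.0535). Endothelial markers (9 of 9 tested) summed to 818 to 978 CPM in chow Renin and 969 to 1154 CPM in HFD Renin, and their part in this was not tested. The median log2 difference over the 34 was 0.35, beside 0.02 over all genes. In the 16 libraries 17 were higher and 1 lower, where 16.2% of all genes were called, and Lama4 and Lamb1 of the basement membrane group no longer passed. In the interaction 5 genes passed, where 10.4% of all genes were called (3.14% above 0 and 7.3% below). Lamc1 (0.56), Nid2 (0.59), Nid1 (0.45) and Lama2 (0.36) were above 0 and Fn1 below. In the 16 libraries Lamc1, Nid2, Bgn and Lum passed, where 7.17% of all genes were called. Single left-out libraries ended the interaction calls of Lama2 in 12 of 21 fits and of Nid1 in 16, and of Lamc1 and Nid2 in none.

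The high-fat diet alone called none of the 34 (edgeR), where 0.0657% of all genes were called (0.0131% higher and 0.0526% lower). At an unadjusted p under 0.05 there were 2 of the 34, both higher, beside 1668 of all 15216 genes, and DESeq2 and limma also called 0. The smallest adjusted p was 0.257, for Sparcl1. The point estimates ran from -0.89 to 0.77. Fap, a protease of activated fibroblasts, was the 1 gene whose libraries did not overlap, at 2.60 to 3.44 CPM against 1.84 to 2.57 (1.06% of all genes in that direction, 1.36% in the other), with an adjusted p of 0.298.

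The 5 atrial-rich hearts were at the high end of their groups for some of the 34 genes. Relative to the mean of the other libraries in their group, 12 of the 34 genes were higher in all 5, as were 8.37% of all genes. Fmod, Prelp, Mgp, Podn and Gsn exceeded every library low in atrial markers of the same group each time, as did 1.21% of all genes. The part of atrial tissue in these values was not tested. Fmod, which codes for fibromodulin, was 12.8 to 33.0 CPM in the 5 and 1.2 to 12.7 in the other 16, a mean log2 difference of 2.87. Mfap4 followed at 1.27, Prelp at 1.16 and Mgp at 1.13. All 7 basement membrane genes were within 0.2 of 0 on this measure. In HFD novirus 6, which is low in atrial markers, 29 of 34 genes were above the mean of the 3 low-atrial chow novirus libraries, with a median log2 difference of 0.56 (0.04 over all genes). The other low-atrial HFD novirus libraries had 15 to 23 genes above that mean, and the low-atrial HFD Renin libraries 26 to 28, with medians of 0.28 to 0.53.

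**Figure D3:**
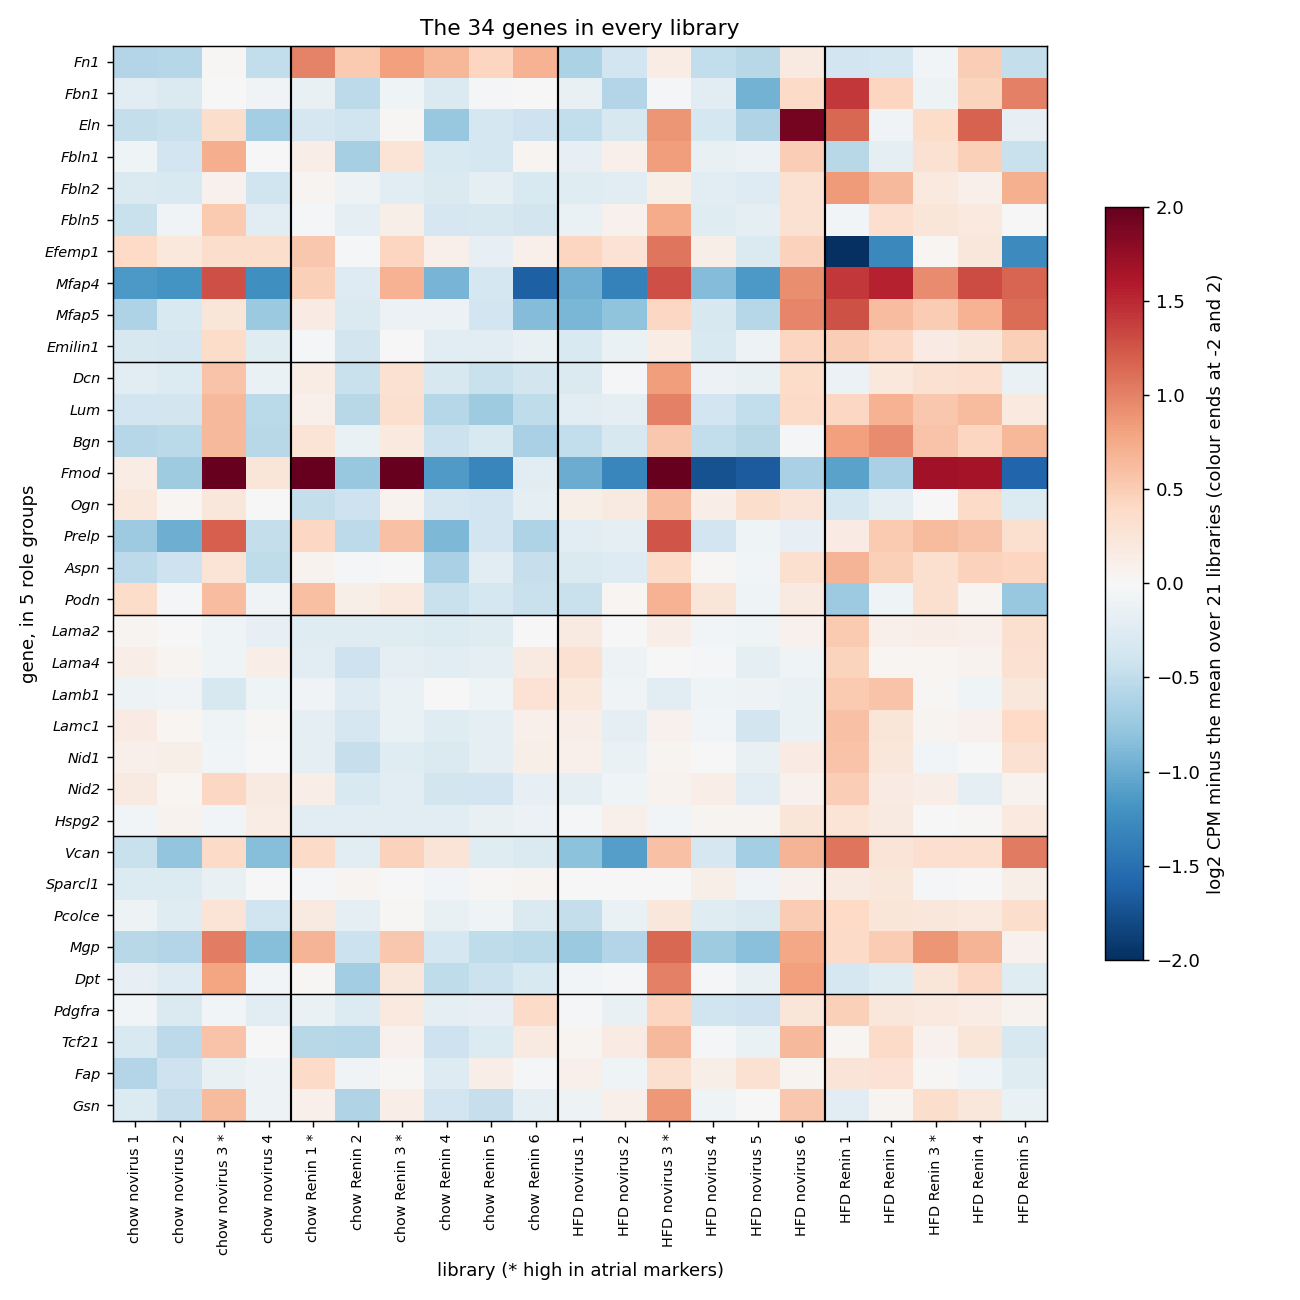
Log2 CPM of each of the 34 genes (rows, in 5 role groups) in each of 21 libraries (columns) minus the gene's mean, in blue (lower) to red (higher). The starred atrial-rich libraries are red for Fmod, Prelp and Mgp, Fn1 is red across chow Renin, and Efemp1 is dark blue in HFD Renin 1, 2 and 5.

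Transcript makeup was examined for 4 genes. Fbln2 has an alternative coding exon of 141 bases (chr6:91259630-91259770, GRCm38, plus strand), shown because it separates the 2 annotated full-length transcripts; this gene was chosen for the purpose after its values were seen, and no test was made. The sequence comes from the GENCODE M21 transcript.
Fbln2 exon, chr6:91259630-91259770, plus strand: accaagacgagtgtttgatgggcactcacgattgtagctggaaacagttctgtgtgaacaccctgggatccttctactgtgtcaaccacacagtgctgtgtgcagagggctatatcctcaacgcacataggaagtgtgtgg
The transcript with this exon was at 21, 14.7, 10.9, 9.20 and 17.3 TPM in HFD Renin and at 7.04, 6.82, 11.8 and 7.36 in chow novirus. The transcript without it was at 8.24, 7.01, 5.76, 5.38 and 6.87 TPM in HFD Renin and at 4.43, 5.35, 4.71 and 3.85 in chow novirus. Out of these 2 transcripts, not of all Fbln2 TPM, the share with the exon was 67.9% ± 3.79 (n = 5) and 63.6% ± 6.52 (n = 4), and 59.0% ± 6.78 in HFD novirus (n = 6).

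Fn1 contains the EDA exon (chr1:71603660-71603929, 270 bases), which is present in 4 of the 7 full-length transcripts and is known as a form of fibronectin found in remodelling tissue.
Fn1 EDA exon, chr1:71603660-71603929, minus strand: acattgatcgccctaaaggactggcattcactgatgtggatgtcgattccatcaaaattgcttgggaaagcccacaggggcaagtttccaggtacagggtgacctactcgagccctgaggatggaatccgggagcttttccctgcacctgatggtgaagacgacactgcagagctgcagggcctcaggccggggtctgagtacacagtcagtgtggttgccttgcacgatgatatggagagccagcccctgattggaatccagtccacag
EDA-containing transcripts took 27.6% ± 4.25 of full-length Fn1 TPM in HFD Renin (n = 5), 24.7% ± 5.64 in HFD novirus (n = 6) and 27.6% ± 5.26 in chow novirus (n = 4). In chow Renin, where Fn1 rose, the share was 28.4% ± 3.50 (n = 6). The differences of HFD Renin from HFD novirus and chow novirus were 2.85 and -0.05 percentage points (two-sided exact permutation tests, p = 0.364 and 0.968; adjusted over 6 tests, 0.545 and 0.968). For Vcan transcripts with the shorter of the 2 glycosaminoglycan exons, the shares were 59.2% ± 6.73 in HFD Renin and 74.4% ± 17.9 in HFD novirus (exact permutation p = 0.113, adjusted 0.338). Chow novirus was at 58.8% ± 15.4, a difference of 0.36 percentage points (exact permutation p = 0.968, adjusted 0.968). Vcan was low, at 0.481 to 5.68 TPM in HFD novirus, and its share in HFD novirus 1 was 100%. For the Fbln1 transcript with the downstream end the shares were 32.1% ± 3.21 in HFD Renin and 27.4% ± 3.72 in HFD novirus (exact permutation p = 0.0519, adjusted 0.312). Chow novirus was at 29.1% ± 3.60 (exact permutation p = 0.222, adjusted 0.444).

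**Figure D4:**
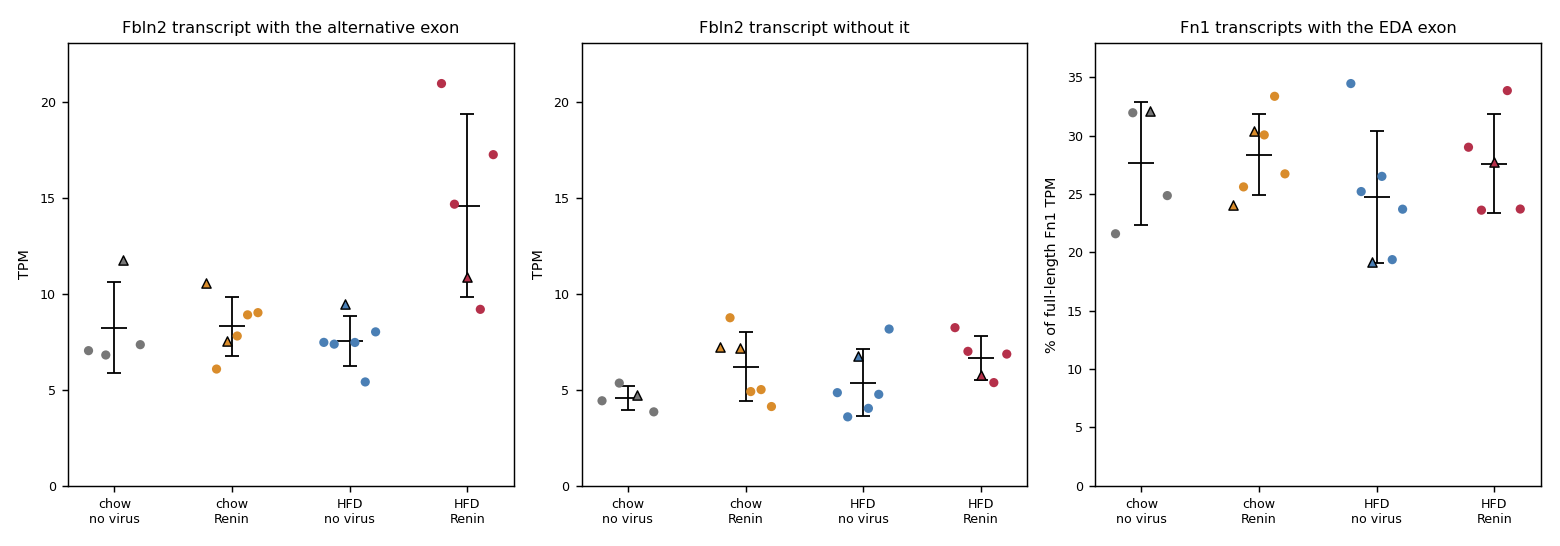
Level of the Fbln2 transcript with the 141-base exon (left) and without it (middle) in TPM, and the share of full-length Fn1 TPM in transcripts with the EDA exon (right, %), per library with the group mean and SD. HFD Renin reaches 21 TPM on the left, and EDA shares of all 4 groups overlap.

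Other genes of the same pathways, from lists chosen with earlier results of these data known, gave context. Of 18 other basement membrane genes tested, 10 rose and 3 fell in HFD Renin against HFD novirus, with a median log2 fold change of 0.46 beside -0.01 over all genes and 6.07% of all genes higher and 5.08% lower; in the 16 libraries 11 rose and 2 fell. Papln rose by 0.86 ± 0.19 (adjusted p = 0.00719, edgeR) and the collagen IV chain Col4a1 by 0.64 ± 0.14 (adjusted p = 0.00772). Of 15 other elastic fibre genes 1 rose and 2 fell (2 and 1 in the 16 libraries): Adamtsl2, which codes for a microfibril-binding protein, rose by 2.04 ± 0.42 (adjusted p = 0.00563), while Emilin2 and Ltbp1 fell by 0.73 ± 0.17 (adjusted p = 0.00955) and by 0.31 ± 0.10 (adjusted p = 0.0446). Of 12 activated fibroblast genes 4 rose and 0 fell (7 and 0 in the 16 libraries), among them Col8a1 by 1.62 ± 0.22 (adjusted p = 0.00048), Meox1 by 1.17 ± 0.21 (adjusted p = 0.0019) and Cilp by 2.66 ± 0.62 (adjusted p = 0.0117). In the 16 libraries 3 of 20 other fibroblast markers rose and 2 fell, and with all libraries 1 rose (Smoc2, by 0.37 ± 0.10, adjusted p = 0.0167) and 1 fell (Scara5, by 1.03 ± 0.23, adjusted p = 0.00806). None of the 8 other small leucine-rich proteoglycans passed in either set of libraries.

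In chow Renin against chow novirus, 7 of 10 hyaluronan-binding proteoglycans and link proteins rose (4 in the 16 libraries), beside 10.1% of all genes with all libraries. This list holds genes of brain matrix and its 3 examples here were chosen after their values were seen. Neurocan (Ncan) rose by 2.42 ± 0.24 (adjusted p = 5.87e-08, edgeR), Cd44 by 1.12 ± 0.14 (adjusted p = 2.07e-06) and brevican (Bcan) by 2.32 ± 0.31 (adjusted p = 4.6e-06). Vcan, the member of that family among the 34, differed by 0.43 ± 0.36 (adjusted p = 0.519). The central neuron marker sums stated above differed in the same libraries, and their part in this was not tested. Cd44 also rose in HFD Renin, by 0.56 ± 0.13 against HFD novirus (adjusted p = 0.00752, edgeR). Against chow novirus its rise in HFD Renin was 0.53 ± 0.14 (adjusted p = 0.0245, edgeR).

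The authors' deposited table gives an adjusted p under 0.05 for 7 of the 34 genes, beside 8.04% of its 16122 genes with an adjusted p. In the authors' deposited table Fbln2 has a log2 fold change of 0.67 (adjusted p 6.28e-05), Mfap5 1.08, Aspn 0.55, Fbn1 0.58, Sparcl1 0.23, Lama2 0.20 and Efemp1 -0.36. That table names HFD with virus but not its reference group.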

How the data were processed

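RNA of 21 mouse hearts was quantified by the authors with Salmon 1.10.2, per the submitters' processing notes, which also name DESeq2 1.40.2, GRCm38 and mm10. Per the file headers, each deposited table gives estimated counts (expected counts, not normalized) and TPM per transcript. The deposited gene matrix holds a signal per library, within 1% of TPM times 1 library factor (1.14 to 1.59) for 98.5% to 98.9% of genes, and the authors' log2 fold change and adjusted p-value. Aligner options are not given in the sources used here.

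Estimated counts were summed to GENCODE M21 genes and rounded; the tests had been laid out for counts. Of 23718 genes with reads 15216 passed filterByExpr. The 4 group means were fitted to all 21 libraries in edgeR 4.0.16 (R 4.3.3; TMM factors 0.886 to 1.09) with glmQLFTest, adjusted over all genes; the SE is the absolute log2 fold change over the square root of F. TMM-scaled CPM are shown. The exact permutation tests used SciPy 1.17.1. The fit was tested on simulated counts.

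The 34 genes and all lists were chosen with earlier results of these data known. Genes described in every library were those called in the comparisons of HFD Renin with HFD novirus or chow novirus (up to 12), of chow Renin with chow novirus (up to 4) and of HFD novirus, plus Pdgfra and Tcf21; lists name the up to 3 called with the lowest adjusted p against HFD novirus. One gene that this rule names is not reported here. Mfap4, Prelp and Vcan were chosen after their values were seen. Depth was 18.7 to 29.3 M estimated reads per library. Alternatives were other normalizations, filters, tools, covariates and left-out libraries; leaving out the 5 atrial-rich libraries was chosen after the data were seen.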

Additional observations from a re-analysis of the deposited data

Results flagged for a closer look

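Among 136 groups of 4 to 6 libraries, 1 per gene and group, 19 held a library far from the others of its group by Dixon's gap ratio; chance flags about 1 in 20 groups, or 6.8 here. Of the 19, 15 were libraries high in atrial markers. Chow novirus 3, one of these, was the highest of its group for Fn1 (99.9 CPM), Mfap4 (19.0), Emilin1 (40.3), Dcn (412), Lum (65.0), Bgn (280), Fmod (33.0), Prelp (131), Aspn (23.6), Mgp (124) and Dpt (104), and the lowest for Lamb1 (78.4). HFD novirus 3 was the highest of its group for Fmod (27.1 CPM) and Prelp (136), and chow Renin 1 for Nid2 (24.6). The 4 others lacked atrial signal: chow Renin 6 for Lama2 (67.8 CPM) and Lama4 (67.4), and HFD novirus 1 for Lama4 (73.8) and Lamb1 (114). The part of atrial tissue in these values was not tested.

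The renin difference varied with diet for 5 genes by an interaction term (edgeR quasi-likelihood, adjusted p under 0.05), where 10.4% of all genes were called. By limma, or adjusting for the central nervous score in edgeR, 0 of the 34 passed. Of 21 fits without 1 library, 16 lost Nid1, 12 Lama2 and 10 Fn1, and none lost Nid2 or Lamc1. The log2 interaction was 0.45 for Nid1, 0.36 for Lama2, 0.59 for Nid2, 0.56 for Lamc1 and -0.94 for Fn1.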

How the results depend on the processing

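Counts of the 34 genes called (edgeR except where another tool is named) moved by over 1.5 times as follows, with the number of all genes called in parentheses (of 15216 tested with all libraries, and of 13468 to 23718 under the alternatives). HFD Renin against chow novirus gave 7 with all libraries (1262), 4 without a filter on low counts (979), 4 with only the compared groups (803), 0 with the clock score (0), 13 with the atrial score (1542) and 12 without the 5 atrial-rich libraries (1263). Chow Renin against chow novirus gave 4 (2048), 2 without a filter (1779), 1 with limma on the deposited matrix (1044), 0 with the central nervous score (27), 2 after thinning to the smallest library (1831) and 2 without the 5 (1556). HFD Renin against HFD novirus gave 5 (1696), 10 with DESeq2 (2176), 2 with only the compared groups (549), 0 with the clock score (30), 11 with the atrial score (2068) and 10 without the 5 (1488). HFD Renin against chow Renin gave 14 (3440), 22 with the atrial score (3556) and 0 with the central nervous score (40). The interaction gave 5 (1589), 3 with upper-quartile normalization (1481), 8 with DESeq2 (1805), 3 without a filter (1359), 0 with limma (803), 9 with the clock score (2068) and 0 with the central nervous score (25). HFD novirus against chow novirus gave 0 throughout. The cause was not tested.

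Replicate numbers did not pair the libraries throughout: of 28 same-numbered pairs 11 correlated above 0.1 (-0.23 to 0.42), 6 of them the pairs of number 3 (0.22 to 0.42), atrial-rich in each group, and the own number correlated best in 19 of 56 matches between 2 groups. With a replicate block the counts were 9 for HFD Renin against HFD novirus (1578 of all genes), 22 against chow Renin (3670) and 9 against chow novirus (1325), where Fbn1 (adjusted p = 0.0638) and Mfap5 (adjusted p = 0.0615) were no longer called.

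Leaving out 1 library at a time gave 2 to 9 calls for HFD Renin against chow novirus (565 to 1723 of all genes), with 2 to 4 (565 to 793) without chow novirus 1, 2 or 4 or HFD Renin 1, 2 or 5. Chow Renin against chow novirus gave 2 to 6 (1512 to 2268), with 2 without chow novirus 2 or 3 or chow Renin 1, 2, 4 or 5. HFD Renin against HFD novirus gave 1 to 8 (696 to 2394): 1 without HFD Renin 1 (696) or 5 (784), 3 without HFD Renin 2 (934) or HFD novirus 2 (1368) or 4 (1491), and 8 without HFD Renin 4 (2394). HFD Renin against chow Renin gave 10 to 15 (2473 to 3667). The interaction gave 2 to 9 (1220 to 1951): 2 or 3 without chow novirus 1, 2 or 4, chow Renin 1 to 5, HFD novirus 2, 4 or 5 or HFD Renin 1, 2 or 5, and 8 or 9 without HFD novirus 6 or HFD Renin 3 or 4.

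Under the central nervous score 6 log2 values changed sign: Hspg2 in chow Renin against chow novirus (0.094), Fbn1 (-0.16), Lama4 (-0.16), Lamb1 (-0.36) and Nid1 (-0.15) in HFD Renin against chow Renin, and the interaction of Nid1 (-0.29). Of the other fold changes under alternatives, 4031 kept their direction and call, 278 moved without a test call, 202 lost a call, and the rest gained one. Differences in transcript share, in percentage points, ranged over single left-out libraries from 1.29 to 4.80 (HFD novirus) and -2.07 to 1.45 (chow novirus) for Fn1, -19.4 to -10.1 and -5.20 to 6.35 for Vcan, and 3.58 to 5.83 and 1.77 to 4.59 for Fbln1. The unadjusted exact permutation p was 0.0476 for Vcan without HFD novirus 4, and 0.0381 and 0.0159 for Fbln1 without HFD Renin 3 and HFD novirus 6. Chow novirus has 4 libraries, the shallowest, which limits the precision of each comparison with it. After thinning to the smallest library, 5 of the 7 genes called in HFD Renin against chow novirus were still called. All 7 kept their direction, and 1206 of 14775 genes tested were called.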
